A study of Mus musculus with 8 samples.

Results

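The genes described here make up the route by which cells show fragments of their own proteins on major histocompatibility complex (MHC) class I molecules. They were taken by gene symbol, as a set proposed with earlier results of these data known: H2-K1, H2-D1, B2m, Tap1, Tap2, Tapbp, Psmb8, Psmb9, Psmb10 and Psme1, which are 10 of the 16593 genes named on the array. A total of 16 of its 25697 probes carry one of these symbols. RNA from spleens of 10-week-old B6D2F1J mice, the F1 hybrid of C57BL/6 and DBA/2, was measured 14 days after donor cells were transferred. This is the parent-into-F1 lupus model, where cells of a parental type respond to the F1 recipient. There were 4 Illumina MouseRef-8 v2.0 arrays of spleens with a DBA donor and 4 arrays of spleens with a B10.D2 donor. All recipients were of this one F1 strain, and every sample had received cells, so there is no array here of a recipient without a donor. Both donor strains carry the H-2d haplotype of the MHC and the recipients carry H-2b and H-2d. B10.D2 is a congenic strain that carries H-2d on a C57BL/10 background. The comparison asks whether the donor strain goes with a different level of class I presentation RNA in the recipient's spleen. Whether the replicates were separate mice is not stated in the labels, and the spread behind each p-value is that between the samples, part of which may be technical. In whole spleen RNA, more cells of a type and more RNA per cell cannot be told apart, and neither can RNA of donor cells and of recipient cells.

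A class I molecule is a heavy chain, in the mouse encoded by H2-K1 or H2-D1 among others, bound to the light chain beta-2 microglobulin, the product of B2m. Proteasomes cut cytosolic proteins into peptides, the transporter made of Tap1 and Tap2 carries the peptides into the endoplasmic reticulum, and tapasin, the product of Tapbp, holds the empty class I molecule at the transporter until a peptide is bound. Interferon-gamma induces Psmb8, Psmb9 and Psmb10, which replace the catalytic subunits Psmb5, Psmb6 and Psmb7 of the constitutive proteasome, and it induces Psme1, a subunit of the PA28 activator. Spleen cells of most types express class I molecules, and lymphocytes and myeloid cells carry immunoproteasomes without infection. Of the 10 genes, 7 lie on chromosome 17, where the mouse MHC is, and the other 3 (B2m, Psmb10 and Psme1) lie on other chromosomes.

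The stretches before the start sites of H2-K1, H2-D1 and B2m are shown because these 3 genes encode the class I molecule itself. The stretch between the start sites of Tap1 and Psmb9 is shown because both genes are read outward from it in opposite directions. Sequences are from RefSeq on the C57BL/6J assembly GRCm38.p6, so those of the MHC genes show the H-2b form and not the H-2d form. They run 5′ to 3′ on the strand of the gene named, and end 1 base before its start site: H2-K1 chr17:34000348-34000547 (minus strand), H2-D1 chr17:35262894-35263093 (plus strand), B2m chr2:122147487-122147686 (plus strand) and Tap1 chr17:34187331-34187555 (plus strand). Capitals mark the motifs listed after them.
H2-K1: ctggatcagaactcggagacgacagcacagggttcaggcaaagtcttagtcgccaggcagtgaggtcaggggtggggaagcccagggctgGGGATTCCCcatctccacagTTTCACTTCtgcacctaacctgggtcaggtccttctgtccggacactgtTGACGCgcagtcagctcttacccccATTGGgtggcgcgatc
H2-D1: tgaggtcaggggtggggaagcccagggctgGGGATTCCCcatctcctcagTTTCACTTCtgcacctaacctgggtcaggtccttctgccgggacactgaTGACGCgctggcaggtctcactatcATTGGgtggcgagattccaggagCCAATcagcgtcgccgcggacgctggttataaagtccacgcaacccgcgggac
B2m: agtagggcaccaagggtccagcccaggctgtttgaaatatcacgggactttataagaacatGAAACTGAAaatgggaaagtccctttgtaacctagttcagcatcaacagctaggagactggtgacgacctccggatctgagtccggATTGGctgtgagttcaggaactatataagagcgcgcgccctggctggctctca
Tap1: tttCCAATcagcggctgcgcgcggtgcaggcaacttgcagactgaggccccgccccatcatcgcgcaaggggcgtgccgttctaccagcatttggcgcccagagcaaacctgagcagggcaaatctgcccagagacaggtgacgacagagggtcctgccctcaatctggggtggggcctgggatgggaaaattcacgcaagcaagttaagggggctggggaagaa

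Both heavy-chain stretches held, in the same order, the core GGGATTCCC of a kappaB motif, to which NF-kappaB factors bind, a short interferon regulatory factor (IRF) element (GAANNGAAA, read here on the other strand), the letters TGACGC of an X2-type box, and CCAAT, with 1 match in the H2-K1 stretch and 2 in the H2-D1 stretch. The kappaB core lay 110 to 102 bases before the first of the 2 annotated start sites of H2-K1, and 170 to 162 bases before the start site of H2-D1. The IRF element followed at 90 to 82 bases in H2-K1 and at 150 to 142 bases in H2-D1. B2m held the core of an interferon-stimulated response element, GAAANNGAA, at 139 to 131 bases. The stretch between Tap1 and Psmb9 held a single CCAAT box, 222 to 218 bases before the start site of Tap1 and 8 to 4 bases before that of Psmb9. No base of the printed stretches belonged to more than 1 of these motifs. All motifs were searched on both strands of windows from 250 bases before to 50 bases after a start site. Of all 32851 such windows, 0.353% held GGGATTCCC, 8.56% GAAANNGAA, 7.52% GAANNGAAA, 7.4% TGACGC and 37.4% CCAAT. RefSeq windows were matched for 9 of the 10 genes (all but Tap2), and 2 of these 9 held GAAANNGAA (B2m and Psme1) and 3 held GAANNGAAA (H2-K1, H2-D1 and Psme1). In Psme1 both matches lay just after the start site and overlapped each other. CCAAT was in 6 of the 9 windows. The start sites of Tap1 and Psmb9 were 226 bases apart. A match is a description of letters and not a binding site.

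None of the 10 genes passed the test between donors. The 10 genes were detected on all 8 arrays with at least 1 probe each, and 14 of the 16 probes were bright enough to be tested. Differences are DBA donor minus B10.D2 donor on the normalized log2 intensity scale, from limma. Adjustment was by the Benjamini-Hochberg method across the 12950 probes tested, and a probe was called at an adjusted p under 0.05. On the probe with the highest mean of each gene, 0 of 10 were called, with 0 at an unadjusted p under 0.05 and 0 with groups that did not overlap. Over all tested probes the corresponding shares were 0.0695% called, 14.5% at an unadjusted p under 0.05 and 8.37% with groups that did not overlap. By direction, 0.0618% were called higher and 0.00772% lower in DBA donor spleens, at that unadjusted p 7.09% were higher and 7.4% lower, and 4.15% and 4.22% were higher and lower with no overlap. The differences of the 10 genes ran from -0.14 to 0.18 with a median of 0.05, against a median of -0.0045 over all tested probes. Their median absolute difference was 0.09, against 0.12 over all tested probes. On the brightest probe of each gene, after quantile normalization, the 95% confidence intervals all lay between -0.39 and 0.40. That is 1.31-fold lower to 1.32-fold higher in DBA donor spleens. A dimmer Tapbp probe, described below, had an interval of 0.32 to 0.99.

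**Figure D1:**
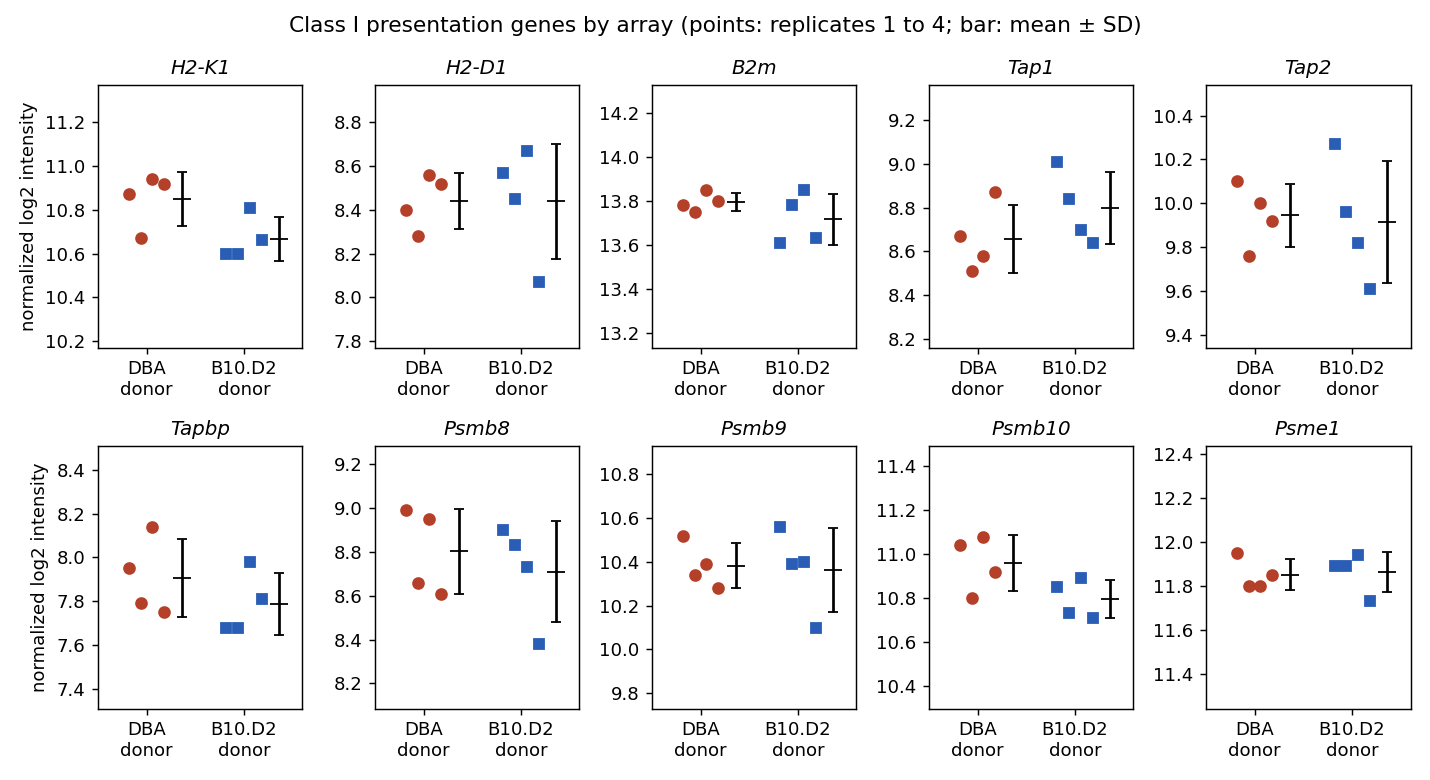
Normalized log2 intensity of the brightest probe of each of the 10 genes (y axis, each panel 1.2 units high and centred on its own gene) on the 4 DBA donor arrays (circles) and the 4 B10.D2 donor arrays (squares), with mean and SD beside them. The groups overlapped in every panel.

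The heavy-chain gene H2-K1 stood at 10.87, 10.67, 10.94 and 10.92 in DBA donor spleens, against 10.60, 10.60, 10.81 and 10.66 in B10.D2 donor spleens. The means were 10.85 ± 0.12 and 10.67 ± 0.10 (SD, n = 4 each), a difference of 0.18 (SE 0.09, 95% confidence interval -0.03 to 0.39, limma adjusted p = 0.414). With median scaling the difference was 0.01. Most DBA donor arrays were above most B10.D2 donor arrays, but the lowest DBA donor array lay below the highest B10.D2 donor array. The other heavy-chain gene, H2-D1, stood at 8.40, 8.28, 8.56 and 8.52 in DBA donor spleens, against 8.57, 8.45, 8.67 and 8.07 in B10.D2 donor spleens. Both means were 8.44, and the difference of 0.00069 (95% confidence interval -0.29 to 0.30, limma adjusted p = 0.999) was far smaller than its SE of 0.13. H2-K1 and H2-D1 belong to a family of closely similar genes with many alleles, and how well each probe binds the H-2b and H-2d alleles or the other family members is not known here, so a level assigned to 1 of them is uncertain. A second H2-K1 probe was above background on none of the DBA donor arrays and on 1 of the 4 B10.D2 donor arrays, and was not tested.

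B2m, the light chain, was bright on every array. Its brightest probe stood at 13.78, 13.75, 13.85 and 13.80 in DBA donor spleens, against 13.61, 13.78, 13.85 and 13.63 in B10.D2 donor spleens, a difference of 0.08 (SE 0.09, limma adjusted p = 0.733). The other detected probe gave 0.04 (SE 0.08, limma adjusted p = 0.848). Replicates spread by 0.04 with the DBA donor and 0.12 with the B10.D2 donor on the first probe (SD, n = 4 each). The non-normalized intensity of these probes was 11484.4 to 14173.3 with the DBA donor and 13080.2 to 15868.3 with the B10.D2 donor, while the brightest probe of each array reached 24710.8 to 27461.3. Another B2m probe was not above background on any array, so it gives no measure of B2m in these spleens.

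The 2 transporter genes did not go the same way, and neither was called. Tap1 stood at 8.67, 8.51, 8.58 and 8.87 in DBA donor spleens, against 9.01, 8.84, 8.70 and 8.64 in B10.D2 donor spleens. Its difference of -0.14 (SE 0.11, 95% confidence interval -0.39 to 0.11, limma adjusted p = 0.615) did not pass. It was -0.36 with median scaling (limma adjusted p = 0.0845), and -0.07 without B10.D2 donor replicate 1 or -0.09 without DBA donor replicate 2. Tap2 stood at 10.101, 9.756, 9.995 and 9.920 in DBA donor spleens, against 10.275, 9.963, 9.817 and 9.609 in B10.D2 donor spleens, a difference of 0.03 (SE 0.14, limma adjusted p = 0.953). The B10.D2 donor arrays spanned the whole range of the DBA donor arrays for Tap2, with an SD of 0.28 against 0.14 in DBA donor spleens.

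Of the 14 tested probes of the 10 genes, 1 had groups that did not overlap, against 8.37% of all tested probes. It was also the only 1 at an unadjusted p under 0.05 in limma, against 14.5% of all tested probes. This was the dimmer of the 2 Tapbp probes. It stood at 6.14, 6.0, 6.29 and 5.75 in DBA donor spleens, against 5.75, 5.20, 5.43 and 5.19 in B10.D2 donor spleens. The gap between the groups was 0.000502, that is, the lowest DBA donor array and the highest B10.D2 donor array were nearly equal. The difference was 0.65 (SE 0.15, 95% confidence interval 0.32 to 0.99, unadjusted p = 0.00142, limma adjusted p = 0.138), which did not pass. It was 0.23 with no background correction, 0.40 with a background offset of 50 and 0.96 on the authors' processed values, and it passed under none of these. Before normalization the same probe read 147.6, 156.8, 148.4 and 144.4 with the DBA donor and 150.6, 151.4, 144.8 and 142.8 with the B10.D2 donor, a little above background, and there the groups overlapped. The brighter Tapbp probe stood at 7.95, 7.79, 8.14 and 7.75 in DBA donor spleens, against 7.68, 7.68, 7.98 and 7.81 in B10.D2 donor spleens, a difference of 0.12 (SE 0.11, limma adjusted p = 0.684). The platform annotation assigns the 2 probes to different RefSeq transcripts of Tapbp. The intervals of the 2 probes, -0.14 to 0.37 on the brighter and 0.32 to 0.99 on the dimmer, overlap only at their ends, and the difference between them was not tested.

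None of the immunoproteasome genes was called, and their differences ran from 0.02 to 0.17 on their brightest probes. Psmb8, which encodes the chymotrypsin-like subunit also called LMP7, stood at 8.99, 8.66, 8.95 and 8.61 in DBA donor spleens, against 8.90, 8.83, 8.73 and 8.38 in B10.D2 donor spleens, a difference of 0.10 (SE 0.14, limma adjusted p = 0.79). Psmb9, which encodes LMP2, averaged 10.38 ± 0.10 with the DBA donor and 10.36 ± 0.19 with the B10.D2 donor (SD, n = 4 each), a difference of 0.02 (SE 0.11, limma adjusted p = 0.956). B10.D2 donor replicate 4 was the lowest of the 8 arrays for both of these genes. Psmb10, which encodes the trypsin-like subunit MECL-1, stood at 11.04, 10.80, 11.08 and 10.92 in DBA donor spleens, against 10.85, 10.73, 10.89 and 10.71 in B10.D2 donor spleens. Its difference was 0.17 (SE 0.09, 95% confidence interval -0.04 to 0.37, limma adjusted p = 0.449), while its other probe gave -0.01 (SE 0.09, limma adjusted p = 0.96). The 2 probes of Psmb10 therefore do not give a common direction.

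Psme1, the alpha subunit of the PA28 activator, which opens the proteasome for peptide release, stood at 11.95, 11.80, 11.80 and 11.85 in DBA donor spleens, against 11.89, 11.89, 11.94 and 11.73 in B10.D2 donor spleens, a difference of -0.02 (SE 0.09, limma adjusted p = 0.948). Its other probe gave -0.07 (SE 0.12, limma adjusted p = 0.842). Of the 4 genes with more than 1 tested probe, B2m, Tapbp and Psme1 had probes of the same sign and Psmb10 had probes of opposite sign.

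**Figure D2:**
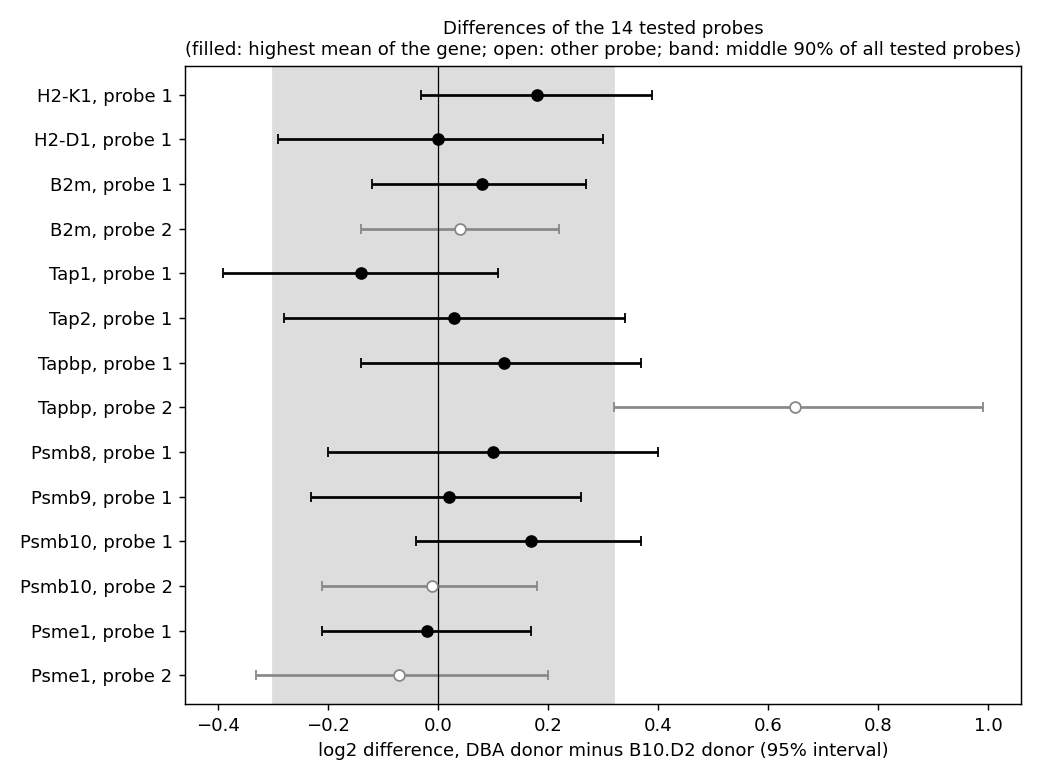
Log2 difference, DBA donor minus B10.D2 donor, with its 95% confidence interval (x axis) for the 14 tested probes (y axis), with the brightest probe of a gene filled and other probes open. The grey band, from -0.30 to 0.32, holds the middle 90% of all tested probes, and only the dimmer Tapbp probe, at 0.65, lies outside it.

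The 7 genes on chromosome 17, for which both donors carry the same haplotype, had differences from -0.14 to 0.18 with a median of 0.03. The 3 genes elsewhere had differences from -0.02 to 0.17 with a median of 0.08. Of all 10, 8 differences were positive, against 49% of all tested probes, and the count includes the 0.00069 of H2-D1. When arrays were scaled to a common median instead of quantile-normalized, which gave all tested probes a median of -0.16, only 2 of the 10 were positive and 6 lay above that median.

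Single arrays moved the genes together within each group. On DBA donor replicate 2 the 10 genes had a median deviation of -0.14 from the mean of their group, and 7 of them were at their lowest in the group there, against 33.4% of all tested probes. B10.D2 donor replicate 4 likewise had a median deviation of -0.14 and was lowest for 7 genes (H2-D1, Tap1, Tap2, Psmb8, Psmb9, Psmb10 and Psme1), against 35.8% of all tested probes. On these 2 arrays none of the 10 genes was at its highest in the group. Over all tested probes the median deviation was -0.02 on both.

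Lymphocyte markers were low on the same 2 arrays. Summed over the 5 tested B cell markers, normalized intensity was 9945 on DBA donor replicate 2 and 11342 to 13214 on the other DBA donor arrays. It was 12116 on B10.D2 donor replicate 4 and 14362 to 15319 on the other B10.D2 donor arrays. The 8 tested of 8 T cell markers summed to 5091 on DBA donor replicate 2, against 5981 to 7104 on the others of its group, and to 5546 on B10.D2 donor replicate 4, against 7146 to 7728. All of these B cell and T cell markers were detected. Erythroid markers, with 5 of 6 tested, were highest in each group on the same arrays, at 52709 on DBA donor replicate 2, against 43412 to 49925 on the others of its group, and at 54171 on B10.D2 donor replicate 4, against 45305 to 53016. One of the 5, Hba-a1, read 14.64 on all 8 arrays after normalization, so it adds a constant to these sums and no difference. B10.D2 donor replicate 4 also had 1870 for the pancreatic elastase gene Cela1, against 321 to 498 on the other 7 arrays. The part of cell makeup in the level of the class I presentation genes was not tested.

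**Figure D3:**
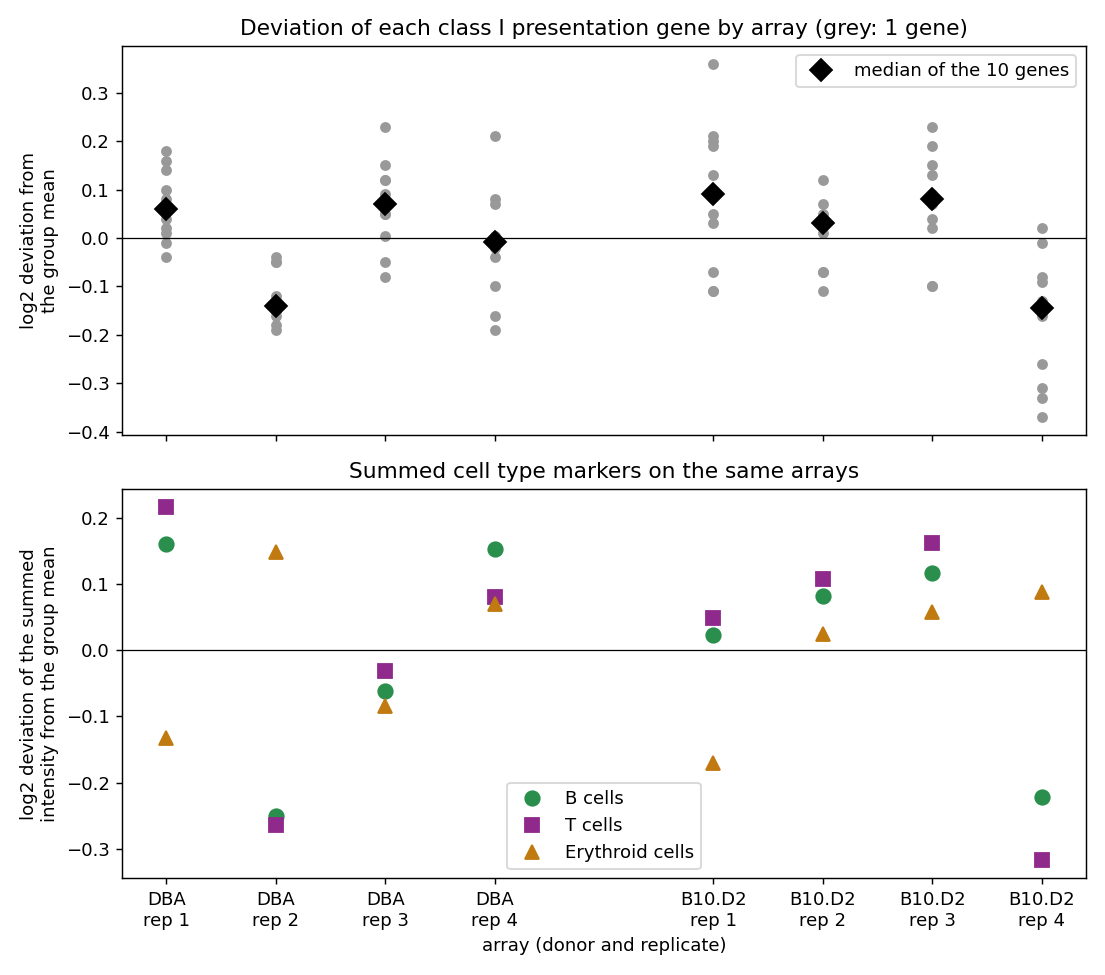
Upper panel, log2 deviation of each of the 10 genes (grey) and their median (black) from the mean of its own group on each array; lower panel, the same for the summed normalized intensity of B cell, T cell and erythroid markers. DBA donor replicate 2 and B10.D2 donor replicate 4, each with a median of -0.14 for the 10 genes, have the lowest B cell and T cell sums and the highest erythroid sums of their groups.

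Between donors, the ranges of the lymphocyte and erythroid sums overlapped, and those of stroma and endothelium did not. The 6 tested stroma and endothelium markers summed to 3773 to 4123 with the DBA donor and 4510 to 5074 with the B10.D2 donor. All 6 are named here, after their values were seen, and 4 were lower and 2 higher in DBA donor spleens. Cdh5, an endothelial cadherin, differed by -0.51 (limma adjusted p = 0.136). Cxcl12, a stromal chemokine, differed by -0.35 (limma adjusted p = 0.141). Both had groups that did not overlap, as did 8.37% of all tested probes. Pecam1, Madcam1, Col1a1 and Col3a1 differed by -0.07, -0.09, 0.08 and 0.14, with groups that overlapped. Cxcl12 was by far the brightest, with means of 11.57 (DBA donor) and 11.92 (B10.D2 donor), so most of each sum is this 1 gene. The part of these genes in the class I presentation values was not tested. B cell markers summed to 9945 to 13214 with the DBA donor and 12116 to 15319 with the B10.D2 donor, with all 5 tested genes lower in DBA donor spleens and 0 called (2 at an unadjusted p under 0.05 in limma). T cell markers summed to 5091 to 7104 with the DBA donor and 5546 to 7728 with the B10.D2 donor, with 8 of 8 lower and 0 called (2 at an unadjusted p under 0.05 in limma). At that p 7.4% of all tested probes were lower. On their brightest probes 0 of the 5 B cell and 1 of the 8 T cell markers were lower with no overlap, against 4.22% of all tested probes. With both low arrays left out, an alternative chosen after seeing the data, 0 of the 10 class I presentation genes were called and their median difference was 0.01.

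Within these 8 arrays, Psmb8 and H2-D1 followed the rest of the set most closely, with Pearson correlations of 0.82 and 0.803 with the mean of the other 9 genes (n = 8 arrays). Tap1, at 0.0919, followed it least. Genes outside the set whose pattern was most like its mean were Snx8 (0.978), Scimp (0.978), Galt (0.973), Toe1 (0.972) and Zcchc18 (0.97), over the same 8 arrays. Snx8 encodes a sorting nexin, Scimp an adaptor of the immune synapse and Galt an enzyme of galactose metabolism. The arrays share a normalization and the list was picked from all tested probes by this correlation, so it is a description.

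Other genes that supply and load peptides act in the same chain of steps. Of 14 such genes 9 were tested, 7 were higher and 2 lower in DBA donor spleens, the median difference was 0.16, and 0 were called. At an unadjusted p under 0.05 in limma 1 was higher, against 7.09% of all tested probes. On their brightest probes 2 of the 9, Calr among them, had groups that did not overlap, both higher, against 4.15% of all tested probes. With median scaling 3 of the 9 were higher and 6 lower, and 7 lay above the median of all probes. Calr, which encodes the chaperone calreticulin of the loading complex, stood at 9.11, 9.35, 9.28 and 9.06 in DBA donor spleens, against 8.69, 8.35, 8.67 and 8.22 in B10.D2 donor spleens. Every DBA donor array was above every B10.D2 donor array, with a difference of 0.72 (SE 0.13, 95% confidence interval 0.43 to 1.00, limma adjusted p = 0.0894). It passed with median scaling and with array weights, at a lowest adjusted p of 0.0422. Calreticulin also folds glycoproteins in general, and 4 of 4 tested plasma cell markers were higher too, with 0 called. Their groups overlapped, and 2 had an unadjusted p under 0.05 in limma, against 7.09% of all tested probes higher. The 4 summed to 7432 to 10053 with the DBA donor and 3794 to 9136 with the B10.D2 donor. The 3794 was on B10.D2 donor replicate 4, and the next lowest B10.D2 donor array had 6378. Most of each sum is the marker Xbp1, with means of 12.69 (DBA donor) and 12.16 (B10.D2 donor). Of the 6 plasma cell markers Prdm1 was above background on 0 arrays and Jchain on 2 of 8, and the part of plasma cells in the level of Calr was not tested. Pdia3, the thiol oxidoreductase that is bound to tapasin, differed by 0.21 (SE 0.10, limma adjusted p = 0.386). Psme2, the partner of Psme1 in PA28, differed by 0.20 (SE 0.09, limma adjusted p = 0.368).

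Subunits of the 20S proteasome core were mostly higher in DBA donor spleens. With median scaling, however, 7 were higher and 5 lower, all 12 of them above the median of all probes. Only Psmb5, Psmb6 and Psmb7 of this core are particular to the constitutive form, and its other subunits are shared with the immunoproteasome. Of 14 genes of the core in its constitutive form, 12 were tested, 11 were higher and 1 lower in DBA donor spleens. The median difference was 0.14 and 0 were called. At an unadjusted p under 0.05 in limma 2 were higher, against 7.09% of all tested probes. On their brightest probes 4 of the 12 had groups that did not overlap, all higher, against 4.15% of all tested probes. Psmb5, the subunit that Psmb8 replaces, stood at 8.44, 8.52, 8.38 and 8.22 in DBA donor spleens, against 7.89, 8.16, 7.89 and 7.90 in B10.D2 donor spleens. Its groups did not overlap, with a difference of 0.43 (SE 0.10, 95% confidence interval 0.20 to 0.66, limma adjusted p = 0.143). Psmb7, the counterpart of Psmb10, differed by 0.23 (SE 0.09, limma adjusted p = 0.274), and by 0.31 and 0.30 on its other probes. Psmb6, the counterpart of Psmb9, had a difference of 0.09 (SE 0.11, limma adjusted p = 0.761). The core subunit Psma4 had one of 0.16 (limma adjusted p = 0.425). The difference of Psmb8 minus that of Psmb5 was -0.33, where the values of the 2 probes subtracted within each array had an SD of 0.20 with the DBA donor and 0.23 with the B10.D2 donor. For Psmb9 minus Psmb6 it was -0.07 and for Psmb10 minus Psmb7 -0.06. These 3 contrasts between genes were not tested.

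**Figure D4:**
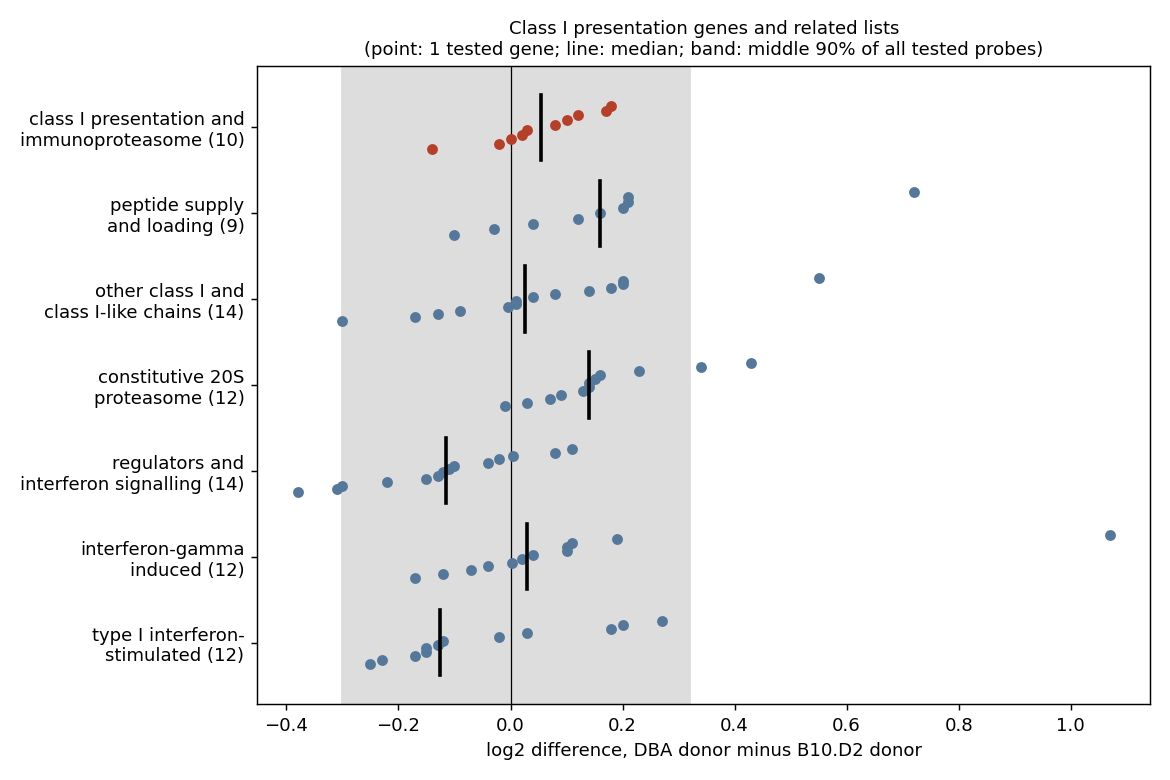
Log2 difference, DBA donor minus B10.D2 donor (x axis), of each tested gene of the class I presentation set and of 6 related lists (y axis, number tested in brackets), with a line at each median and a grey band for the middle 90% of all tested probes. The 10 class I presentation genes lie between -0.14 and 0.18, while Ido1, at 1.07, Calr, at 0.72, and H2-T24, at 0.55, lie farthest out among the other lists.

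Among other class I and class I-like chains, 14 of 28 genes were tested, 9 were higher and 5 lower in DBA donor spleens, the median difference was 0.02 (with median scaling 2 were higher and 12 lower, and 8 lay above the median of all probes) and 0 were called (at an unadjusted p under 0.05 in limma, 1 was higher and 1 was lower). H2-T24, a nonclassical heavy chain, stood at 5.87, 6.44, 6.18 and 6.17 in DBA donor spleens, against 5.49, 5.80, 5.53 and 5.65 in B10.D2 donor spleens. On this dim probe the groups did not overlap, with a difference of 0.55 (SE 0.13, limma adjusted p = 0.138). This was 1 of the 14 genes on their brightest probes, where 4.15% of all tested probes were higher with no overlap. Cd1d1, which presents lipids to NKT cells, stood at 9.16, 8.89, 8.96 and 9.05 in DBA donor spleens, against 9.10, 9.26, 9.48 and 9.40 in B10.D2 donor spleens, a difference of -0.30 (SE 0.11, limma adjusted p = 0.252). H2-M2 differed by 0.18 (SE 0.10, limma adjusted p = 0.411). As with the classical chains, probes of this family may share transcripts.

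Regulators of the class I genes and of interferon signalling were mostly lower in DBA donor spleens. Of 18 genes 14 were tested, 3 were higher and 11 lower in DBA donor spleens, with a median difference of -0.12 and 0 called. At an unadjusted p under 0.05 in limma 4 were lower, against 7.4% of all tested probes. With median scaling all 14 were below 0, as was the median of all probes, and 3 lay above that median, with the list's median at -0.07 relative to it, against -0.11 after quantile normalization. Nlrc5, the transactivator of class I promoters, differed by 0.11 (SE 0.09, limma adjusted p = 0.613). Irf1, a factor through which interferon-gamma acts on these promoters, differed by -0.12 on its brightest probe (SE 0.10, limma adjusted p = 0.618) and by -0.20 to 0.21 on 4 others. The dim probe of Ifng itself differed by -0.11 (SE 0.12, limma adjusted p = 0.721).

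On their brightest probes, 4 of the 14 tested genes of this list had groups that did not overlap, all lower in DBA donor spleens. Over all tested probes 4.22% were lower with no overlap. Both chains of the interferon-gamma receptor were among the 4. Ifngr1 stood at 9.26, 8.84, 8.84 and 9.07 in DBA donor spleens, against 9.30, 9.45, 9.38 and 9.41 in B10.D2 donor spleens, a difference of -0.38 (SE 0.11, limma adjusted p = 0.203). Of both chains, these probes passed only with median scaling. Ifngr2 differed by -0.30 (SE 0.10, limma adjusted p = 0.236), but by 0.13 and 0.08 on its other probes. The dim probe of Socs1, a feedback inhibitor of this receptor, was another of the 4 and differed by -0.31 (SE 0.11, limma adjusted p = 0.244). Its means were 4.83 with the DBA donor and 5.14 with the B10.D2 donor, close to background.

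The interferon-gamma induced genes beyond the class I route had a median difference of 0.03. Of 16 genes 12 were tested, 8 were higher in DBA donor spleens, 4 were lower (with median scaling 1 was higher and 11 lower, and 7 lay above the median of all probes) and 0 were called (1 at an unadjusted p under 0.05 in limma). Ido1, a tryptophan-degrading enzyme, stood at 7.37, 6.63, 7.52 and 6.75 in DBA donor spleens, against 6.72, 6.51, 6.18 and 4.59 in B10.D2 donor spleens. Its difference was 1.07 (SE 0.41, limma adjusted p = 0.28), or 0.60 without B10.D2 donor replicate 4. The GTPase gene Irgm2 differed by -0.17 (limma adjusted p = 0.544) and the chemokine gene Cxcl10 by 0.19 (limma adjusted p = 0.566). Without DBA donor replicate 3 Cxcl10 was 0.05, and without DBA donor replicate 1 Irgm2 was -0.09. Of 16 type I interferon-stimulated genes 12 were tested, 4 were higher and 8 lower in DBA donor spleens, with a median of -0.12 and 0 called. At an unadjusted p under 0.05 in limma there were 0, against 14.5% of all tested probes. With median scaling 2 were higher and 10 lower, and 5 lay above the median of all probes. Oasl2 differed by 0.27, Irf7 by -0.23 and Ifit3 by -0.25, with limma adjusted p of 0.389, 0.411 and 0.51.

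Normalization sets the zero of all these differences. Median non-normalized intensity was 113.2 to 124.8 on the DBA donor arrays and 126.4 to 142.1 on the B10.D2 donor arrays, and the number of probes detected was 12730 to 13320 on the DBA donor arrays and 12601 to 13020 on the B10.D2 donor arrays. Before normalization all 10 class I presentation genes were lower in DBA donor spleens, by a median log2 difference of -0.32, as were 98.9% of all tested probes, with a median of -0.28. Over all tested probes the fit called 9, 8 of them higher and 1 lower with the DBA donor. It called 0 when DBA donor replicate 3, DBA donor replicate 4 or B10.D2 donor replicate 2 was left out, 2 when DBA donor replicate 1 or B10.D2 donor replicate 3 was left out, and 4 when DBA donor replicate 2 was left out. With median scaling in place of quantile normalization all tested probes had a median difference of -0.16, and 625 probes passed, 27 higher and 598 lower. Under that scaling the median of the 10 genes was -0.12, which is 0.04 above that of all probes, and 0 of the 10 were called.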

How the data were processed

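The non-normalized table deposited by the authors gives, per the file headers, mean bead intensity (linear) and a detection p-value that sets each probe against its array's negative controls. The authors' other deposited table has processed intensity made by steps not given in the sources used here. It ranked probes as the first did (rank correlation of 1 on each array), had array medians of 13.9 to 14 and was tried as an alternative. GenomeStudio is named in the submitters' processing notes. Intensities were put through neqc of limma 3.58.1 in R 4.3.3 (normexp background from the detection p-values, offset of 16, quantile normalization, log2). A probe was fitted where its detection p was below 0.05 on 4 or more of the 8 arrays, whatever their group, with lmFit and eBayes. The fit was tested on simulated data. Array number limits the precision.

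A gene is represented by its tested probe with the highest mean. All 10 genes were named, as were, from each of 6 further lists, members that passed, or otherwise the 3 with the smallest p, besides Psmb5, Psmb6, Psmb7, Nlrc5, Irf1 and Ifng, and the 5 genes most like the set. Members and lists were chosen with earlier results of these data known. Symbols came from the platform annotation (23978 probes with 1 gene, 0 with several, 1719 unlisted), matched to the GRCm38.p6 gene table. No genome build is given for the probes. Figures were drawn with matplotlib 3.10.9.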

Additional observations from a re-analysis of the deposited data

Results flagged for a closer look

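Of 72 groups of 4 arrays examined for the genes named, 4 had 1 array far from the other 3, where chance gives about 3.6 (1 in 20), and none of the 4 concerned one of the 10 class I presentation genes. Each share is the distance of that array from its nearest neighbour, divided by the range of the 4. For Irf1, DBA donor replicate 2 stood lowest (11.53, against 11.83 to 11.89 on the others, share 0.836). Irf7 was highest on B10.D2 donor replicate 4 (7.70, against 7.45 to 7.49, share 0.853), and Psma4 was lowest there (11.33, against 11.53 to 11.55, share 0.904). Psmb5 was highest on B10.D2 donor replicate 2 (8.16, against 7.89 to 7.90, share 0.941), which lay nearest to the DBA donor arrays.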

How the results depend on the processing

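Under 20 alternatives none of the 10 class I presentation genes was called by limma, and their median difference ran from -0.12 to 0.09, or from -0.04 to 0.09 with 1 array left out. Of 276 values of single probes under these alternatives 27 had the other sign and 0 passed; the dimmer Tapbp probe kept its sign throughout, at 0.23 to 0.96, with an adjusted p of 0.0502 at the lowest. Median scaling turned H2-D1 to -0.22, Tap2 to -0.18, Tapbp to -0.10, Psmb8 to -0.12, Psmb9 to -0.18 and Psmb10 to -0.0035, beside its shift of -0.16 for all probes. H2-D1 also turned to -0.00053 with an offset of 50 and to -0.0019 with no background correction. Array weights gave -0.04 for H2-D1 and -0.01 for Psmb9. With the probes of each gene averaged, Tapbp was 0.38 (limma adjusted p = 0.211), against 0.12 on its brighter probe alone. Without both DBA donor replicate 2 and B10.D2 donor replicate 4 (chosen after seeing the data) H2-D1 was -0.07, Tap2 -0.01, Psmb9 -0.05 and the second Psmb10 probe 0.002. With 1 array left out the range was -0.12 to 0.08 for H2-D1, -0.08 to 0.15 for Tap2, -0.01 to 0.16 for Psmb8, -0.07 to 0.09 for Psmb9, -0.04 to 0.03 for the second Psmb10 probe, -0.06 to 0.01 for Psme1 and -0.12 to 0.03 for its second probe. The cause was not tested.

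The count of 9 over all probes was 625 with median scaling, 38 with array weights, 5 with the authors' processed values and 0 with no filter on dim probes (where 2759 had an unadjusted limma p below 0.05). With 1 array left out it ran from 0 to 9. Leaving out replicate 3 or 4 of the DBA donor arrays gave 0 calls (1230 and 1997 probes had an unadjusted limma p below 0.05), as did leaving out replicate 2 of the B10.D2 donor arrays (1278 such probes). It was 2 when replicate 1 of the DBA donor or replicate 3 of the B10.D2 donor was dropped, 4 when replicate 2 of the DBA donor was dropped, and 6 when replicate 4 of the B10.D2 donor was dropped. Of the other genes named, Calr, Cd1d1, Ifngr1 and Ifngr2 passed with median scaling, and Calr also with array weights. Median scaling also turned Nlrc5 to -0.10, Psmb6 to -0.10, Psme2 to -0.02, H2-M2 to -0.03 and Cxcl10 to -0.03. With 1 array left out Tap1 ran from -0.21 to -0.07, Irgm2 from -0.24 to -0.09 and Cxcl10 from 0.05 to 0.27. With the replicate block 7 probes and 0 of the 10 genes passed, and the median of the 10 was 0.05. Deviations of same-numbered arrays correlated at 0.34, -0.353, 0.0469 and 0.0406, and DBA donor replicate 2 correlated best with B10.D2 donor replicate 4 (0.56), so the numbers were not taken to pair the samples.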
